A study of Mus musculus with 21 samples.

Results

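The 6 tumours described here come from the placebo arm of a study of 21 mouse tumours. They were chosen by their arm label alone, and the level and spread of each named probe set were read within them, with no contrast to the treated arms. All tumours of the study grew from Hepa1-6 cells, a mouse hepatoma line that makes liver proteins, of which 5000000 in 100 µl were injected subcutaneously into female mice of the C57BL/6J strain aged 5 to 6 weeks. Mice were randomised at a tumour volume of 200 mm3, and the placebo mice then received the drug vehicle and a polyclonal IgG as a stand-in for the therapeutic antibody. Other mice of the study received lenvatinib, an antibody against PD-1, or both. Tumours were collected on day 13, and RNA from 30 mg of each was hybridised to 1 Clariom S array, so each value below is 1 piece of 1 tumour from 1 mouse. The model is a single cell line growing outside the liver in an animal with its own immune system, and a tumour piece can hold tumour cells, host stroma, immune cells and neighbouring tissue in any ratio. In such bulk samples, fewer cells of a type and less RNA per cell cannot be told apart.

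A hepatoma keeps part of the liver program. Mature hepatocytes secrete albumin, clotting factors and carrier proteins under the control of a network of liver transcription factors that includes HNF4 and the FOXA proteins. Alpha-fetoprotein, the product of Afp, is made by the fetal liver and by many liver tumours and is nearly silent in the adult organ. The host adds fibroblasts that lay down collagen, vessels, macrophages and T cells, and under the skin a tumour lies against muscle, fat and, in females, mammary gland.

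The liver markers did not stand high in all 6 pieces. Afp, which encodes the fetal serum carrier, had log2 signals of 5.60, 11.49, 11.19, 8.90, 11.39 and 5.05 in placebo mice 1 to 6. Alb, which encodes albumin, had 7.56, 12.46, 12.19, 10.35, 12.33 and 7.65. Mice 2, 3 and 5 were high for both genes, mouse 4 lay between, and mice 1 and 6 were low. The 99th percentile of 1080 olfactory receptor probe sets, genes that a tumour is not known to use, served as a limit of background, and it was 5.47 on the array of mouse 1 and 5.67 on that of mouse 6. Afp thus stood just above this limit in mouse 1 and below it in mouse 6. The pieces from mice 1 and 6 are labelled as tumour, yet Afp was near or below background in them, while Alb, though low there, was above the limit on all 6 arrays. Whether these pieces held tumour cells was not tested. Counts below are therefore given for all 6 mice and, as a choice made after the data were seen, without mice 1 and 6.

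The arrays gave a value for 19572 named probe sets, which stand for 19505 genes. A value is a log2 signal, so a step of 1 is a factor of 2, and the array medians lay between 5.44 and 5.56. Of the named probe sets, 2188 (11.2%) were above the 95th percentile of that array's negative-control probes on all 6 arrays, and 7152 (36.5%) were above the olfactory receptor limit on all 6. The median SD over the 6 mice was 0.35 log2 units for all named probe sets and 0.40 for the 3506 whose mean was above the negative-control limit. Of these 3506 brighter probe sets, 192 (5.48%) had an SD over 1, while 779 of all named probe sets (3.98%) did. Without mice 1 and 6, 2487 probe sets were above the negative-control limit on all arrays and 180 had an SD over 1. Pairs of arrays correlated across the 3506 probe sets with Pearson's r between 0.578, for mice 1 and 2, and 0.929, for mice 4 and 6; these are correlations across genes, which are not independent replicates. The hybridization controls, which are control transcripts added to each array, averaged 11.47 and 11.46 on the arrays of mice 4 and 6 and 10.34 to 10.91 on the others. The middle spread of signals was narrowest on the same arrays, with interquartile ranges of 2.79 and 2.71 against 2.97 to 3.18. The part of these array differences in the results was not tested.

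**Figure D1:**
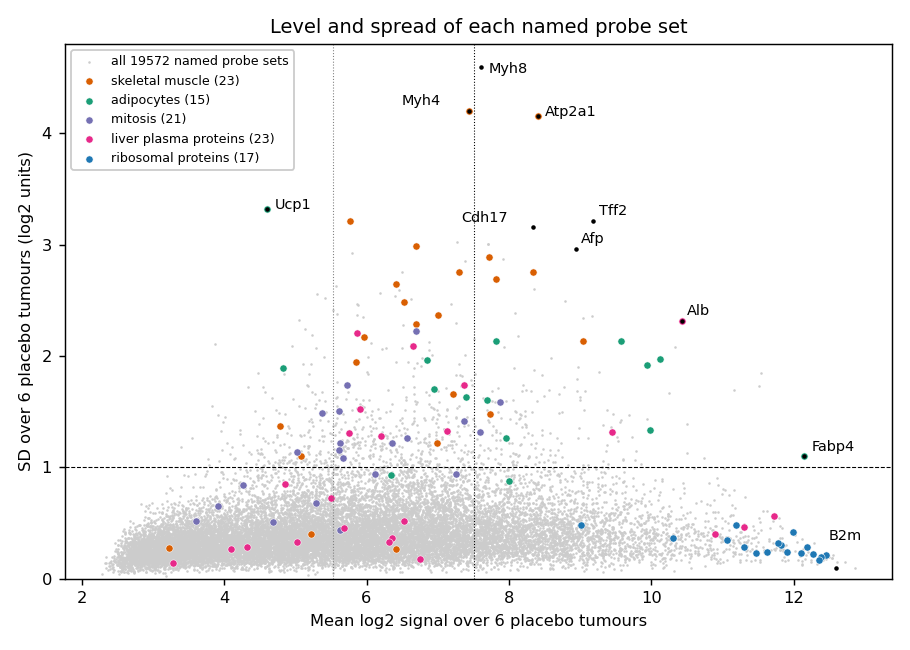
Mean log2 signal (horizontal) and SD in log2 units (vertical) of each of the 19572 named probe sets over the 6 placebo tumours, with 5 gene lists in colour and the number of measured members in brackets. The dashed line marks an SD of 1, and the dotted lines mark the mean olfactory receptor limit of 5.54 and the mean negative-control limit of 7.51. Ribosomal protein genes lie at the bright, steady end, while muscle genes reach an SD of 4.59 (Myh8).

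The brightest probe sets belonged to genes of protein synthesis, respiration, antigen presentation and the extracellular matrix. Signal also depends on how well each probe binds, so the order of different genes is an order of probe sets and not of transcript abundance. Of the 25 probe sets with the highest means, 13 were ribosomal protein genes, led by Rpl41 at 12.86 ± 0.10 (SD, n = 6). Ribosomal protein genes have many near-identical copies in the genome, and the arrays may not separate them. Cox7c, Cox6c, Atp5md and Uqcrh, which encode subunits of the respiratory chain and ATP synthase, were also among the 25, with means of 12.72, 12.28, 12.53 and 12.20. B2m, the light chain of MHC class I, averaged 12.59 and was steady, with an SD of 0.09.

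Genes of macrophages and fibroblasts stood beside these household genes. Mmp12, the macrophage elastase, averaged 12.54 ± 0.18 (SD, n = 6) and lay between 12.28 in mouse 6 and 12.79 in mouse 3. Dcn, the small matrix proteoglycan decorin made by fibroblasts, averaged 12.24 ± 0.17 and ran from 11.98 in mouse 4 to 12.43 in mouse 5. Both genes were thus bright in every piece, including the pieces of mice 1 and 6. Cd63 and Cst3, which encode a lysosomal membrane protein and the protease inhibitor cystatin C, averaged 12.45 and 12.24, and the iron storage gene Fth1 averaged 12.42. Myl6, a myosin light chain of non-muscle and smooth muscle cells, averaged 12.32, and Itm2b, a membrane protein, averaged 12.16.

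Among the 3506 brighter probe sets, the 10 steadiest genes had an SD of 0.09 or less. Psmc3, a subunit of the proteasome cap, lay between 9.23 and 9.40 with an SD of 0.06. Tbcb, a tubulin folding cofactor, lay between 10.25 and 10.39, and Sec62, part of the translocation machinery of the endoplasmic reticulum, between 8.99 and 9.18. The others of this set were Plpbp, Ubfd1, Mfsd10, Mbd2, Ccnc, Ppp1cc and Fxr1, and 1 provisional name was left out. All 14 measured genes of a list of common reference genes were above the olfactory receptor limit on all 6 arrays, against 36.5% of all named probe sets. None had an SD over 1, a share near the 3.98% of all named probe sets. Within that list Actb, the cytoplasmic actin, had an SD of 0.17 and Eef1a1, a translation factor, 0.13. Gapdh, a glycolytic enzyme, had 0.55 and ranged from 10.69 in mouse 6 to 12.12 in mouse 2. Sdha, a subunit of complex II, varied most in the list with an SD of 0.92.

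Genes of skeletal muscle and of fat were prominent among the most variable genes. Of the 25 with the highest SD among the brighter probe sets, Myh8, Atp2a1, Tnnc2, Tnni2, Actn3, Tpm2 and Myl1 belong to the contractile apparatus of muscle or its calcium pump. Afp, Alb, Tff2, Cdh17, Habp2, Igfbp1 and Rhox5 were high in mice 2, 3 and 5; which cells of the pieces made these transcripts was not tested. Ces1d, Adipoq, Plin1, Retn, Thrsp and Car3 are genes that adipocytes express strongly, and Cox8b is a respiratory subunit of brown fat and muscle. The others were Amy1, Mup9, Wfdc18 and Fxyd2, and 3 provisional names were left out. Of these 25 genes, 13 were still among the 25 most variable without mice 1 and 6.

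Genes of liver, gut and reproductive tract varied beside Afp and Alb. Tff2, a mucus-stabilising trefoil peptide best known from the stomach, had 5.12, 12.23, 10.91, 9.27, 12.11 and 5.41 in mice 1 to 6. Cdh17, a cadherin of liver and intestine, had 4.82, 10.92, 10.84, 8.17, 11.05 and 4.21. Rhox5, a homeobox gene of the reproductive tract that many tumour lines express, had 5.70, 10.69, 9.44, 7.10, 10.33 and 5.22. In each of these 3 genes mice 2, 3 and 5 were high, mouse 4 was between them and mice 1 and 6, and mice 1 and 6 were lowest. Habp2, a plasma serine protease made by the liver, reached 10.64, 10.31 and 10.85 in mice 2, 3 and 5 and was 5.67 in mouse 1 and 5.09 in mouse 6. Igfbp1, a secreted binding protein of insulin-like growth factors that the liver makes, reached 11.27, 10.40 and 10.90 in mice 2, 3 and 5, against 5.91 and 5.71 in mice 1 and 6. These 6 genes, Afp, Tff2, Cdh17, Habp2, Rhox5 and Igfbp1, had the largest loadings at the low end of the first principal component, which held 57.8% of the variance of the 3506 brighter probe sets. Its coordinates were 0.30, -0.50, -0.23, 0.35, -0.46 and 0.53 for mice 1 to 6, and its high end was held by Ces1d, Plin1, Amy1, Adipoq, Retn and Fxyd2. Without mice 1 and 6 the first component held 63.4%.

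**Figure D2:**
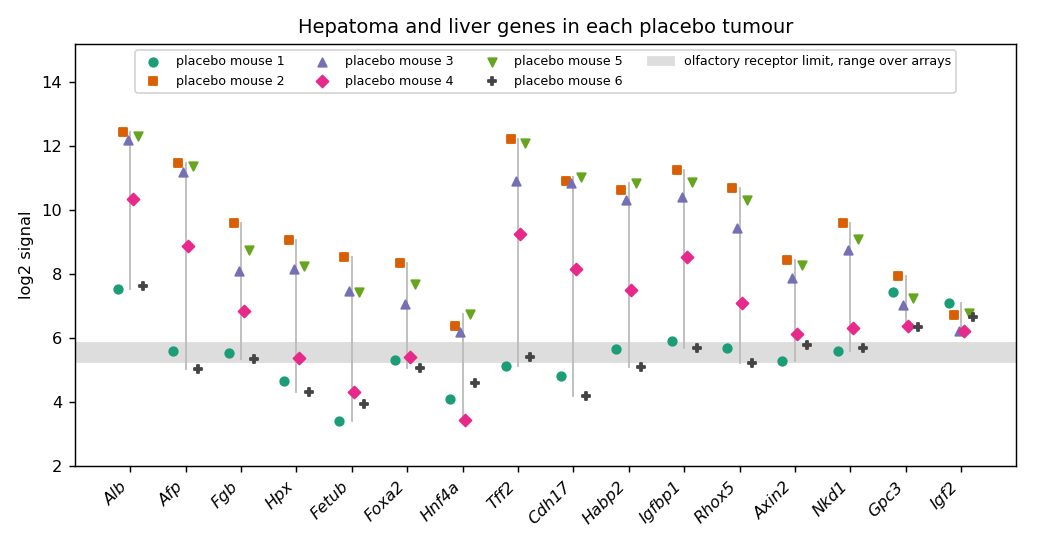
Log2 signal of 16 liver, hepatoma and Wnt target genes in each of the 6 placebo tumours, 1 symbol per mouse, with a grey line from the lowest to the highest mouse and a grey band for the olfactory receptor limit (5.25 to 5.86 over the arrays). From Alb to Nkd1 mice 2, 3 and 5 lie highest, while Gpc3 and Igf2 do not follow this order.

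Genes of secreted liver proteins did not behave as 1 block. Of 23 measured, 9 (39.1%) had an SD over 1, against 3.98% of all named probe sets. Above the olfactory receptor limit on all 6 arrays were 9 (39.1%), a share near the 36.5% of all named probe sets; without mice 1 and 6 the count with an SD over 1 was also 9. The list score, which averages the members' deviations from their own means over the 6 placebo tumours, was -0.45, 0.90, 0.24, -0.32, 0.28 and -0.66 in mice 1 to 6. Fgb, the fibrinogen beta chain, had 5.55, 9.60, 8.11, 6.86, 8.76 and 5.37 in mice 1 to 6. Hpx, the heme carrier hemopexin, had 4.66, 9.09, 8.17, 5.39, 8.28 and 4.32, and Fetub, an inhibitor of proteases in plasma, had 3.41, 8.54, 7.47, 4.34, 7.46 and 3.95. In these genes mouse 2 was highest, mice 3 and 5 came next, and mice 1, 4 and 6 were lower. Rbp4, the retinol carrier, and Apoe, a lipid carrier that macrophages also make, were bright everywhere, at 11.72 ± 0.57 and 11.29 ± 0.47 (SD, n = 6). Trf, which encodes transferrin, averaged 10.90 ± 0.40. Hp, the hemoglobin binder haptoglobin, which fat tissue also makes, stood the other way round, with 10.84, 10.68 and 10.23 in mice 1, 4 and 6 and 8.13, 8.93 and 7.84 in mice 2, 3 and 5. Serpinc1, the gene of antithrombin, was lowest of the list at 3.29 ± 0.15, below the limit in every mouse.

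Liver transcription factors were mostly dim, and not all members shared 1 order of the mice. The list scores were -0.41, 0.46, 0.20, -0.34, 0.40 and -0.30 in mice 1 to 6, highest in mice 2, 3 and 5. Of 14 measured, 4 (28.6%) had an SD over 1, against 3.98% of all named probe sets. All 4 were highest in mice 2, 3 and 5. The olfactory receptor limit was passed on all 6 arrays by 2 (14.3%), against 36.5%. Foxa2, a pioneer factor of liver genes, had 5.32, 8.37, 7.07, 5.42, 7.69 and 5.09 in mice 1 to 6. Hnf4a, a nuclear receptor that maintains the hepatocyte state, had 4.12, 6.38, 6.20, 3.45, 6.76 and 4.62. Mice 2, 3 and 5 were highest for both, and Hnf4a passed the limit in these 3 mice only. Foxa3, the brightest of the list, averaged 6.77 ± 1.02 (SD, n = 6), and Nr1h4, the bile acid receptor, was lowest at 3.16. Cebpa, a factor of hepatocytes and adipocytes, was highest in mice 1, 6 and 4, at 6.37, 6.36 and 6.06.

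Most enzymes of the mature hepatocyte were below the limit on at least 1 array. Of 19 measured, 2 (10.5%) were above the olfactory receptor limit on all 6 arrays, a smaller share than the 36.5% of all named probe sets. Cps1 and Otc of the urea cycle averaged 3.40 and 2.60, Cyp3a11 averaged 3.33, and Cyp7a1, the rate-limiting enzyme of bile acid synthesis, averaged 3.90. The members that stood high are also used outside the liver. Ces1d, a lipase and carboxylesterase of liver and fat, had 11.56, 5.41, 8.93, 10.79, 7.52 and 10.77 in mice 1 to 6. Cyp2e1, an alcohol-oxidising enzyme, and Pck1, which serves glucose synthesis in liver and glycerol synthesis in fat, were likewise highest in mice 1, 4 and 6, at 9.64, 9.77 and 8.58 for Cyp2e1 and 7.68, 7.73 and 6.67 for Pck1. Arg1, an arginase of hepatocytes and of macrophages, ran the other way, with 10.36, 10.42 and 10.49 in mice 2, 3 and 5 and 8.93, 7.73 and 6.45 in mice 1, 4 and 6.

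Fetal and oncofetal genes other than Afp showed no common order. Of 14 measured, 3 (21.4%) had an SD over 1, against 3.98% of all named probe sets. The list score, Afp included, ranged over 0.48. It ranged over 3.68 for Afp, Aldoa and Pkm, the members with a mean above the negative-control limit. Gpc3, a cell-surface proteoglycan of fetal liver and hepatoma, ran from 6.36 in mouse 6 to 7.96 in mouse 2, with 7.45 in mouse 1. Igf2, the fetal growth factor, lay between 6.23 and 7.10 and was highest in mouse 1. Aldoa and Pkm, the glycolytic isoforms that replace the adult liver forms in tumours and are also made by muscle and many other cells, averaged 10.81 and 10.60. Lin28b, an RNA-binding protein of embryos, was lowest at 3.76 ± 0.14 (SD, n = 6). H19, Igf2bp1 and Meg3 are unnamed here. Among bile duct and progenitor genes, Krt18 and Krt8, the keratins of simple epithelia including hepatocytes, averaged 10.99 and 10.15 and were lowest in mouse 1, at 9.77 and 9.25. Krt19, a keratin of ducts, was highest in mice 4, 6 and 1, at 8.72, 8.34 and 7.86, and lowest in mouse 2 at 5.27. Anxa13 was lowest of that list at 2.95.

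The scores of Wnt target genes were highest in mice 2, 3 and 5, as Afp was. Wnt signals keep beta-catenin from being degraded, and beta-catenin then switches on feedback inhibitors of the pathway together with growth genes. Of 12 measured targets, 4 (33.3%) had an SD over 1, against 3.98% of all named probe sets, and 3 without mice 1 and 6. The list scores were -0.72, 0.79, 0.47, -0.59, 0.81 and -0.75 in mice 1 to 6. Nkd1, an inhibitor of Dishevelled, had 5.61, 9.60, 8.77, 6.32, 9.12 and 5.69. Axin2, a scaffold of the complex that degrades beta-catenin, had 5.28, 8.45, 7.89, 6.12, 8.29 and 5.80. Mice 2, 3 and 5 were each more than 1 log2 unit above every other mouse for these genes. Myc, a growth regulator, had 6.30, 8.46, 8.09, 5.62, 8.40 and 3.71, and Znrf3, a ligase that removes Wnt receptors, averaged 8.16 ± 1.21 (SD, n = 6). Lgr5, a receptor that strengthens Wnt signals, averaged 6.81, and Dkk4, a secreted inhibitor, was lowest at 3.77.

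Genes of cell division varied widely between the mice. Of 21 measured mitosis genes, 13 (61.9%) had an SD over 1, against 3.98% of all named probe sets, and 10 did without mice 1 and 6. The list scores were -1.15, 1.20, 0.58, -0.92, 1.13 and -0.84 in mice 1 to 6, a range of 2.35. No member was highest in mouse 1, 4 or 6. Of all named probe sets, 15.3% were highest in mouse 1 and 22.3% in mouse 6. In mouse 2, 12 of 21 members (57.1%) were highest, against 19.5% of all named probe sets. Mki67, the proliferation antigen Ki-67, had 5.85, 9.23, 8.91, 6.43, 9.61 and 7.21. Cdk1, the kinase that starts mitosis, had 4.40, 9.12, 7.99, 5.52, 8.84 and 4.27, and was below the olfactory receptor limit in mice 1, 4 and 6. Birc5, Ube2c and Ccnb2, which encode survivin, a conjugating enzyme of the anaphase-promoting complex and cyclin B2, averaged 7.60, 7.37 and 7.26. Bub1b, a spindle checkpoint kinase, was lowest at 3.61. The list score of DNA replication genes was highest in mice 2, 3 and 5, with a range of 1.33. Mcm2, a subunit of the replicative helicase, had 6.03, 8.47, 7.98, 5.89, 8.55 and 6.47, and Pcna, the sliding clamp, ran from 8.37 in mouse 4 to 9.52 in mouse 2. Prim1, the primase subunit, varied most in the list, from 3.53 in mouse 6 to 6.94 in mouse 2.

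Promoters of Ccnb2 and Cdc20, which encodes an activator of the anaphase-promoting complex, are shown as examples of the elements known from cell cycle genes. The 250 bases before each start site are from RefSeq (GRCm38.p6), both on the minus strand, at chr9:70421555-70421804 for Ccnb2 and chr4:118437344-118437593 for Cdc20. Capitals mark CCAAT, the box bound by NF-Y, and TTTGAA, the cell cycle genes homology region.
Ccnb2: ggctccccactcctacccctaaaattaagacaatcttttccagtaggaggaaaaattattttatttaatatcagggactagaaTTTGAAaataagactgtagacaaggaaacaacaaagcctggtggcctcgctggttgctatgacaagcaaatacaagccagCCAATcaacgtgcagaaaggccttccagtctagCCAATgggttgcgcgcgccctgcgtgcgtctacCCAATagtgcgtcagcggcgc
Cdc20: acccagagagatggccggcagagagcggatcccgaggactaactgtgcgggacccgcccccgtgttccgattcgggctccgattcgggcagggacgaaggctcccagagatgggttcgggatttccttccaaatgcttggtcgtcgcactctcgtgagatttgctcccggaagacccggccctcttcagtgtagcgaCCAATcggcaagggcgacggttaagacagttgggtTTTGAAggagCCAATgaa
Ccnb2 had CCAAT at 87, 54 and 21 bases before the start and TTTGAA at 167. Cdc20 had CCAAT at 53 and 8 bases and TTTGAA at 18. Counting both strands, CCAAT or ATTGG lay in the window of 15 of 18 mitosis genes with an entry (83.3%) and of 37.5% of all 27018 genes in the table. TTTGAA or TTCAAA lay in that of 9 of 18 (50.0%) and of 18.3% of all genes. A match describes letters and not a bound site. Cdc20 itself had a signal of 4.32, 6.96, 6.37, 4.35, 6.78 and 5.01 in mice 1 to 6, so that mice 2, 3 and 5 were above the olfactory receptor limit and the other mice below it.

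Hypoxia and glycolysis genes were bright and leaned the same way. Of 18 measured, 16 (88.9%) were above the olfactory receptor limit on all 6 arrays, against 36.5% of all named probe sets. An SD over 1 was seen for 2 (11.1%), against 3.98%. The list score was highest in mice 2 and 5, at 0.63 and 0.56, and lowest in mouse 6 at -0.75, where 11 of 18 members had their lowest value, against 19.2% of all named probe sets. Slc2a1, the glucose transporter GLUT1, ran from 9.52 in mouse 6 to 11.99 in mouse 5. Egln3, an oxygen sensor that is itself induced by hypoxia, had 7.25, 9.79, 8.98, 7.34, 9.71 and 6.31 in mice 1 to 6. Ndrg1, a stress-induced gene, averaged 10.15, and Car9, a carbonic anhydrase used as a hypoxia marker, was at background, with a mean of 4.84. Among p53 targets Cdkn1a, the cell cycle inhibitor p21, was brightest and varied most, from 8.03 in mouse 6 to 10.54 in mouse 5. Ccng1, Phlda3 and Mdm2 averaged 8.85, 8.65 and 7.11, and Zmat3 was lowest at 4.57. In cholesterol synthesis Fdps, which makes farnesyl diphosphate, averaged 8.35, and Sqle, the squalene epoxidase, varied most, from 4.51 in mouse 4 to 7.94 in mouse 2. Fdft1, Nsdhl and Dhcr7 averaged 7.99, 7.67 and 7.14, and Idi1 was lowest at 2.97.

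Ribosomal protein genes differed little but in step. All 17 measured ribosomal protein genes were lowest in mouse 1, against 16.8% of all named probe sets, and 15 of 17 were highest in mouse 2, against 19.5%. The list score was -0.44 in mouse 1 and 0.39 in mouse 2. Rplp1, Rpl7, Rps14 and Rps18 averaged 12.45, 12.38, 12.35 and 12.26, Rpl23 had an SD of 0.48, and Rplp0 was lowest at 9.01. Nuclear genes of the respiratory chain had a median SD of 0.41, close to the 0.40 of all brighter probe sets. Of 19 measured, 14 were highest in mouse 1, against 15.3% of all named probe sets, and 5 in mouse 6, against 22.3%. Their score was 0.67 in mouse 1 and between -0.30 and 0.05 in the others. Ndufa5, Cox7a2 and Cox4i1 were bright beside Cox6c, at 11.85, 11.81 and 11.72. Ndufv1, the flavoprotein subunit of complex I, had 10.35 in mouse 1 and 8.48 to 8.85 elsewhere, and Ndufs1 was lowest at 5.62.

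Skeletal muscle genes set mice 1 and 5 apart from mice 2, 4 and 6, with mouse 3 between. Of 23 measured, 20 (87.0%) had an SD over 1, against 3.98% of all named probe sets, and the same number did without mice 1 and 6. The list scores were 2.49, -1.74, 0.20, -1.69, 2.46 and -1.72 in mice 1 to 6. Atp2a1, the calcium pump of fast fibres, had 12.78, 5.40, 10.72, 4.43, 12.85 and 4.24, values that place mice 1, 3 and 5 far above background and mice 2, 4 and 6 below the olfactory receptor limit of their arrays. Myh4, the myosin of the fastest fibres, had 11.85, 3.84, 10.07, 3.57, 11.78 and 3.55. Myh8, the perinatal myosin, had the highest SD of the brighter probe sets and gave 12.39, 3.51, 10.44, 3.41, 12.44 and 3.50; its probes may also bind transcripts of the near-identical adult myosins. Tnni2 and Myl1, the troponin I and a myosin light chain of fast fibres, averaged 8.34 and 9.04. Myh7, the myosin of slow fibres, was at background in all mice, at 3.23 ± 0.27 (SD, n = 6). The second principal component, with 24.7% of the variance, had Myh8, Atp2a1, Tnnc2, Tnni2, Actn3 and Myl1 at its high end and Csn3, Rpl39, Wfdc18, Snord12, Smim22 and Ly6d at the low end.

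Fat genes gave another order of the mice. Of 15 measured adipocyte genes, 13 (86.7%) had an SD over 1, against 3.98% of all named probe sets, and 11 without mice 1 and 6. The scores were 2.05, -2.09, -0.48, 0.99, -1.26 and 0.78 in mice 1 to 6, and 12 of 15 members were lowest in mouse 2, against 18.2% of all named probe sets. The list includes the brown fat genes Ucp1 and Cidea, both highest in mouse 1, so the score of mouse 1 is not one of white fat alone. Adipoq, the fat hormone adiponectin, had 11.32, 6.26, 9.46, 11.49, 7.86 and 11.04, and Plin1, the coat protein of fat droplets, had 10.01, 5.17, 6.93, 9.58, 5.75 and 9.48. Mice 1, 4 and 6, the mice low in Afp and Alb or between, were the ones high in both fat genes. Fabp4, a fatty acid carrier of adipocytes that macrophages and endothelium also use, was bright in all pieces, from 10.30 in mouse 2 to 13.03 in mouse 4. Retn, Scd1 and Thrsp, which encode resistin, a desaturase and a regulator of lipid synthesis, averaged 10.12, 9.99 and 9.94.

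Ucp1, which uncouples respiration in brown fat, separated mouse 1 from every other mouse. It had 11.36 in mouse 1 and between 2.95 and 3.51 in the other 5 mice, where it was below the olfactory receptor limit. A list of 8 brown fat genes was drawn up after this value was seen, so its counts are a description of mouse 1 only. All 8 were highest in mouse 1, among them Cidea at 8.45, Ppargc1a at 10.47 and Elovl3 at 6.77, and the next highest values were 5.27, 7.19 and 4.22. Mouse 1 was thus the piece with high genes of white fat, brown fat and muscle together, and one of the pair with low Afp. Whether muscle or fat content bears on the levels of liver genes was not tested.

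**Figure D3:**
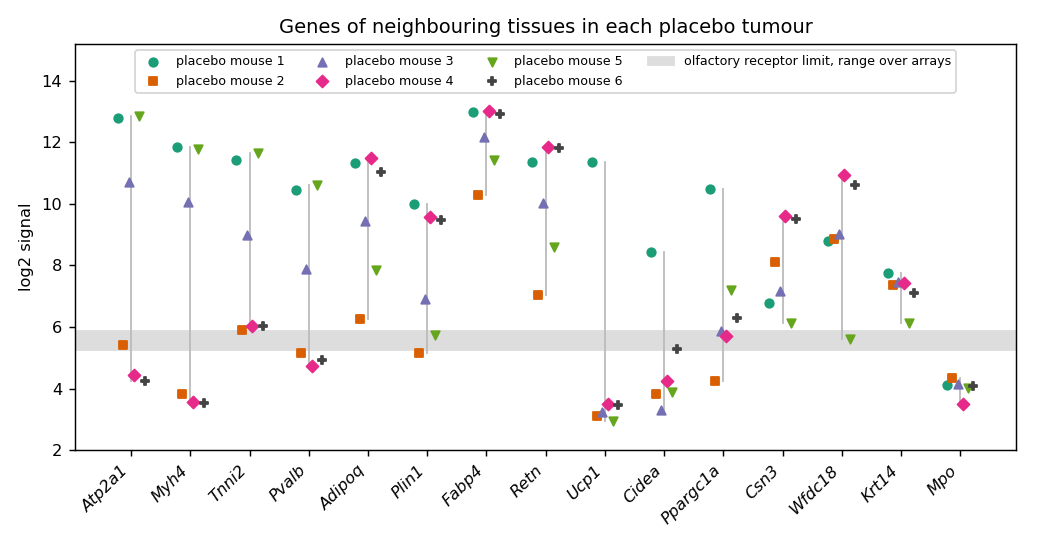
Log2 signal of 15 genes of muscle, white and brown fat, mammary gland, epidermis and neutrophil granules in each of the 6 placebo tumours, 1 symbol per mouse, with the olfactory receptor limit in grey. Atp2a1 and Myh4 are high in mice 1, 3 and 5, Adipoq and Plin1 in mice 1, 4 and 6, Ucp1 and Cidea in mouse 1, and Csn3 and Wfdc18 in mice 4 and 6.

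Csn3 and Wfdc18, 2 genes of the mammary gland, were highest in mice 4 and 6. Csn3, which encodes kappa-casein, had 9.61 in mouse 4, 9.51 in mouse 6 and 6.15 to 8.11 in the others. Wfdc18, a small secreted protein of the mammary gland, had 10.96 and 10.61 in mice 4 and 6, against 5.60 in mouse 5 and 8.81 to 9.04 in mice 1, 2 and 3. In a list of 8 mammary genes that was likewise chosen after these values were seen, the other 6 stayed low: Csn2, beta-casein, lay between 3.68 and 5.22, and Wap, the whey acidic protein, between 4.37 and 5.54. High values in mice 4 and 6 were thus seen for 2 of the 8 genes. Mup9, a major urinary protein whose gene family has many near-identical copies, ran from 6.39 in mouse 2 to 11.95 in mouse 6. Lcn2, an iron-scavenger binding protein of neutrophils and stressed epithelia, was highest in mice 4 and 6 as well, at 11.15 and 10.07, and 6.45 in mouse 5.

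Few genes of epidermis, neurons or testis were bright in all pieces. Of 17 epidermis and hair genes, 1 (against 36.5% of all named probe sets) was above the olfactory receptor limit on all 6 arrays, the basal keratin Krt14 at 7.21 ± 0.57 (SD, n = 6). Dmkn, named for its expression in the epidermis, was the only one with an SD over 1, with 4.23, 9.60, 7.83, 5.46, 7.93 and 4.00 in mice 1 to 6, which is the order of Afp. Krt1 of the upper epidermis averaged 3.60. None of 12 neuron genes, 14 testis genes and 5 Y-linked genes was above the limit on all 6 arrays. Among them Camk2a, a calcium-dependent kinase of neurons that muscle also uses, had 6.53 and 6.80 in mice 1 and 5 and 4.35 to 4.82 in the others. Sycp3, a protein of the meiotic chromosome axis, had 7.62, 6.87 and 7.75 in mice 1, 4 and 6 and 4.87 to 5.41 in mice 2, 3 and 5. Of 8 Schwann cell genes, Pmp22, a myelin protein that fibroblasts also make, was brightest at 9.86, and Mbp, the myelin basic protein, averaged 4.95 and was highest in mouse 1 at 5.92. In blood cells Pf4, a platelet chemokine, averaged 10.02 ± 0.36 and Alas2, the heme synthesis enzyme of red cells, 5.79; the globin genes are unnamed here.

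**Figure D4:**
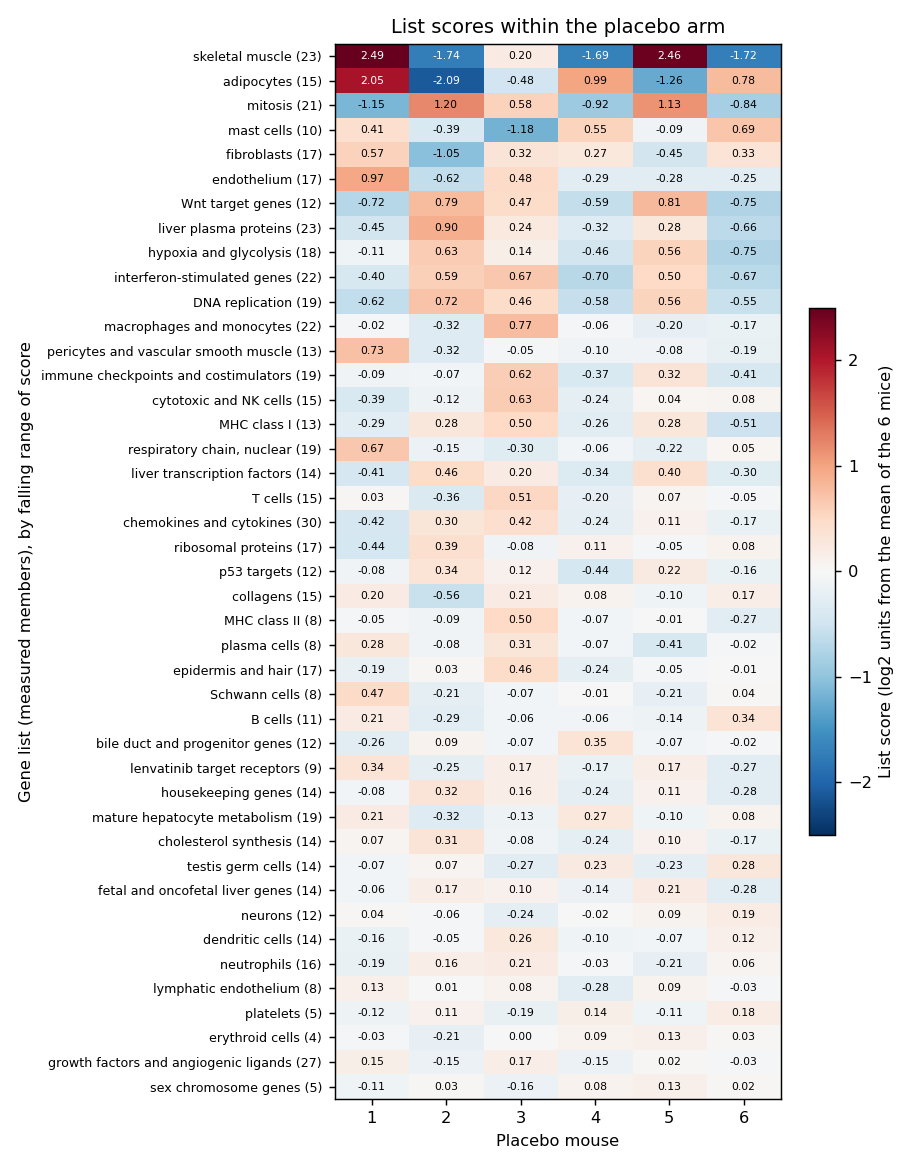
Score of each of 43 gene lists (rows, number of measured members in brackets) in each of the 6 placebo tumours (columns), in log2 units from the mean of the 6 mice, ordered by the range over mice. Skeletal muscle and adipocytes span over 4 units, mitosis spans 2.35, and 16 lists span over 1 unit.

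Across the 43 lists, 16 had a score range over 1 log2 unit, and 12 without mice 1 and 6. Of the 16, muscle, fat and mitosis spanned the most, and mast cells, fibroblasts and endothelium came next at 1.87, 1.62 and 1.58. Macrophages, T cells and MHC class II spanned 1.08, 0.87 and 0.77. Some ranges rested on 1 mouse. Without mouse 3 the ranges of macrophages, T cells, cytotoxic cells, MHC class II and mast cells were 0.30, 0.42, 0.46, 0.26 and 1.08. Without mouse 1 those of the respiratory chain, pericytes and ribosomal proteins were 0.35, 0.27 and 0.47, and without mouse 2 those of liver plasma proteins and collagens were 0.94 and 0.31.

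Fibroblast genes were bright, with mouse 2 lowest. Of 17 measured, 11 (64.7%) were above the olfactory receptor limit on all 6 arrays, against 36.5% of all named probe sets. An SD over 1 was seen for 4 (23.5%), against 3.98%. In mouse 2, 11 of 17 were lowest, against 18.2% of all named probe sets, and 12 of 17 without mice 1 and 6, against 23.9%. Postn, the matrix protein periostin, averaged 11.13 ± 0.66 (SD, n = 6). Lum, a proteoglycan that binds collagen fibres, had 10.48, 7.78, 10.69, 10.97, 8.50 and 11.19 in mice 1 to 6. Dpt, the dermal matrix protein dermatopontin, had 11.66, 7.99, 10.62, 11.44, 9.95 and 11.38. Mouse 2 and then mouse 5 were lowest for both genes, while Dcn stayed within 0.45 log2 units. Clec3b, a plasminogen-binding protein of resting fibroblasts and fat, varied most in the list, from 4.67 in mouse 2 to 9.14 in mouse 4. Fap, a protease of activated fibroblasts, averaged 5.16.

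Of 15 collagen and matrix genes, 11 (73.3%) were above the olfactory receptor limit on all 6 arrays, against 36.5% of all named probe sets, and 8 were lowest in mouse 2, against 18.2%. Sparc and Fn1, the matrix glycoproteins osteonectin and fibronectin, averaged 11.79 and 10.62. Col3a1, a chain of fibrillar collagen, had 8.87, 6.34, 8.57, 9.11, 6.69 and 9.79 in mice 1 to 6. Col1a1 lay between 6.84 in mouse 2 and 8.54 in mouse 6. Among pericyte and smooth muscle genes Tagln and Acta2 were brightest, at 9.20 and 8.85. The list score was 0.73 in mouse 1 and -0.32 to -0.05 in the others, and 9 of 13 members were highest in mouse 1, against 15.3% of all named probe sets. Des, the intermediate filament desmin, which skeletal muscle also makes, had 9.73 and 9.31 in mice 1 and 5, 7.07 in mouse 3 and 3.94 to 5.60 in mice 2, 4 and 6, so that the same 3 mice were high as for the skeletal muscle genes. Cnn1, a calponin of smooth muscle, was highest in mice 1 and 4, at 8.25 and 7.92.

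Most vessel genes were highest in mouse 1. Of 17 endothelial genes, 13 (76.5%) were highest in mouse 1, against 15.3% of all named probe sets. In mouse 2, 7 of 17 were lowest, against 18.2%. The scores were 0.97, -0.62, 0.48, -0.29, -0.28 and -0.25 in mice 1 to 6; of the 4 mice left without mice 1 and 6, mouse 3 was highest for 13 of 17, against 21.0% of all named probe sets. Pecam1, the junction protein CD31, had 8.41, 6.60, 8.07, 6.51, 7.49 and 7.39. Cdh5, the endothelial cadherin, had 8.57, 5.45, 8.02, 5.66, 6.45 and 6.72, so that mice 1 and 3 were highest for both genes. Eng, a co-receptor of the TGF-beta family, varied most, from 4.69 in mouse 6 to 7.95 in mouse 1. Sox17 was lowest at 3.97. Lymphatic markers varied less: Lyve1 averaged 6.27 and Stab2 2.81, both of them receptors for hyaluronan. Mouse 1 was also the piece with the highest brown fat genes. The skeletal muscle score was 2.49 in mouse 1 and 2.46 in mouse 5, and the endothelial score of mouse 5 was -0.28. Muscle and brown fat are rich in vessels, and their part in the vessel genes was not tested.

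Of the receptors that lenvatinib inhibits, 9 were measured. The 3 above the olfactory receptor limit on all 6 arrays (33.3%, near the 36.5% of all named probe sets) were Fgfr1 at 8.10 ± 0.46, Kit at 7.15 ± 0.91 and Flt1 at 7.07 ± 0.73 (SD, n = 6). Kdr, the main VEGF receptor of vessels, had 7.90, 4.61, 6.46, 5.98, 5.41 and 6.97 in mice 1 to 6 and was below the limit in mice 2 and 5. Fgfr4, the FGF receptor of hepatocytes, had 5.19, 7.65, 6.57, 5.66, 7.59 and 4.63, and so was highest in mice 2, 5 and 3, as Afp was. Fgfr2 was highest in mice 1 and 4, at 7.19 and 7.17. Flt4, Ret and Fgfr3 averaged 5.51, 5.21 and 5.20, close to the limit, and Pdgfra is unnamed here. Among ligands Igf1, made by macrophages and fibroblasts as well as by liver, averaged 10.94 and Vegfa, the main signal for vessel growth, 9.36 ± 0.35. Pgf, a relative of Vegfa, and Pdgfa, a growth factor for stromal cells, were highest in mouse 2, at 8.80 and 8.23. Tgfb1 averaged 8.32, Fgf21 was at background with 4.26, and Klb, a co-receptor for FGF hormones found in liver and fat, ran from 4.33 in mouse 2 to 7.80 in mouse 1.

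Most macrophage genes were above the olfactory receptor limit, and mouse 3 stood highest. The negative-control limit was passed on all 6 arrays by 11 of 22, against 11.2% of all named probe sets. Of 22 measured macrophage and monocyte genes, 19 (86.4%) were above the olfactory receptor limit on all 6 arrays, against 36.5% of all named probe sets. In mouse 3, 15 of 22 (68.2%) were highest, against 12.2% of all named probe sets, and 16 of 22 without mice 1 and 6, against 21.0%. The score was 0.77 in mouse 3 and -0.32 to -0.02 in the others. Lyz2, the lysozyme of myeloid cells, averaged 11.62 ± 0.61 (SD, n = 6), and Ms4a7 and Tyrobp, a membrane protein of macrophages and a signalling adaptor, averaged 10.87 and 10.80. C1qa, a chain of complement C1q made by tissue macrophages, lay between 10.49 in mouse 6 and 11.33 in mouse 3. Other members varied more. Chil3, a chitinase-like protein of monocytes and alternatively activated macrophages, had 6.38, 9.07, 10.44, 8.55, 8.90 and 5.86 in mice 1 to 6. Nos2, the inducible nitric oxide synthase, had 5.20, 6.85, 8.50, 5.52, 7.65 and 4.41. Mouse 3 was highest for both and mice 1 and 6 lowest, and for Nos2 only mice 2, 3 and 5 were above the limit. Cx3cr1, a chemokine receptor of monocytes, was lowest of the list at 4.83.

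**Figure D5:**
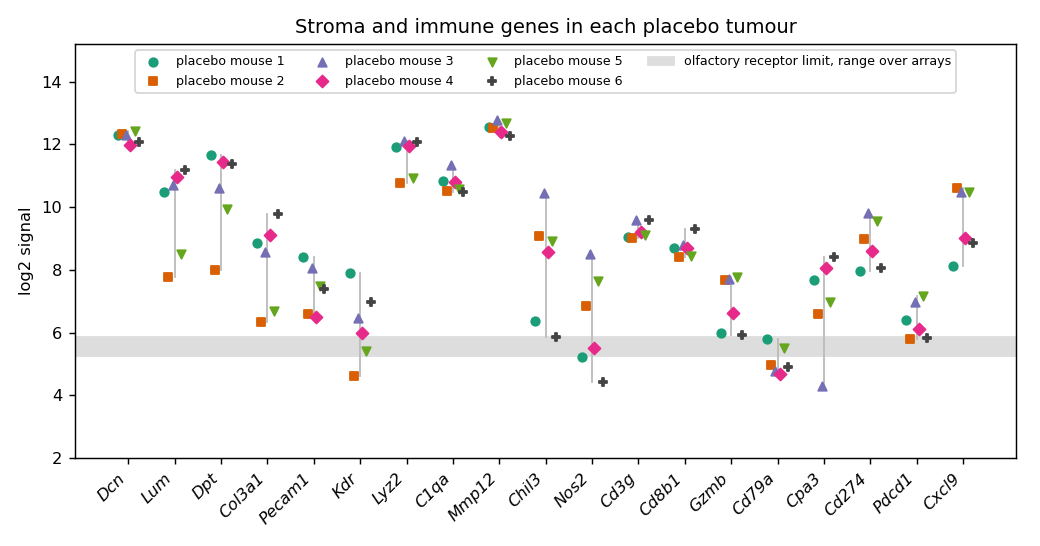
Log2 signal of 19 fibroblast, vessel and immune genes in each of the 6 placebo tumours, 1 symbol per mouse, with the olfactory receptor limit in grey. Dcn, Mmp12 and Cd3g lie close together over the mice, whereas Lum, Chil3, Nos2 and Cpa3 spread over several log2 units and Cpa3 is lowest in mouse 3.

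Most T cell genes were above the olfactory receptor limit in every piece. The negative-control limit was passed on all 6 arrays by 3 of 15, against 11.2% of all named probe sets. Of 15 measured, 10 (66.7%) were above the olfactory receptor limit on all 6 arrays, against 36.5% of all named probe sets. None had an SD over 1, a share near the 3.98% of all named probe sets. In mouse 3, 11 of 15 (73.3%) were highest, against 12.2% of all named probe sets, and 12 of 15 without mice 1 and 6, against 21.0%. Cd3g, a chain of the T cell receptor complex, averaged 9.26 ± 0.26 (SD, n = 6), and Cd3d and Cd3e averaged 8.65 and 7.69. Cd8b1, a co-receptor chain of cytotoxic T cells, lay between 8.40 in mouse 2 and 9.30 in mouse 6. Cd8a had 6.68, 5.57, 7.13, 6.07, 7.17 and 5.61 in mice 1 to 6, an order that Cd8b1 did not share. Il2ra was at background at 3.52. Among cytotoxic genes Nkg7, a granule protein, averaged 8.87, and Gzmb, the protease granzyme B, had 5.97, 7.67, 7.71, 6.63, 7.76 and 5.93. Gzma, another granzyme, varied most, from 4.77 in mouse 1 to 7.49 in mouse 3, and Klrk1 was lowest at 4.04. B cell genes were dim, with 0 of 11 above the limit on all 6 arrays and Ms4a1, which encodes CD20, at 3.47 ± 0.35; Bank1, a scaffold of B cell receptor signalling, averaged 6.11 and was above the limit on 5 arrays. Jchain, which joins secreted immunoglobulins, was bright in most pieces, with 10.77, 8.83, 10.32, 9.82, 7.07 and 10.59. Of 8 plasma cell genes, Jchain included, 3 (37.5%) were above the limit on all 6 arrays, a share near the 36.5% of all named probe sets.

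Most mast cell genes were lowest in mouse 3. Of 10 measured, 7 were lowest there, against 16.6% of all named probe sets, and 4 had an SD over 1, against 3.98%; Kit, which other cells also make, was instead second highest there at 7.98. The scores were 0.41, -0.39, -1.18, 0.55, -0.09 and 0.69 in mice 1 to 6. Cpa3, the carboxypeptidase of mast cell granules, had 7.67, 6.58, 4.30, 8.06, 6.98 and 8.40. Mcpt4, a chymase of connective tissue mast cells, had 7.48, 6.21, 4.01, 7.73, 7.07 and 7.29, and Tpsb2, a tryptase, had 5.94 in mouse 3 and 8.20 to 8.70 elsewhere. Mouse 3 was below the limit for Cpa3 and Mcpt4, and the other 5 mice were above it. Mrgprb1, a receptor of mast cells in skin, varied most, from 3.82 in mouse 3 to 8.30 in mouse 6, and Ms4a2 was lowest at 3.50.

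Neutrophil and dendritic cell genes were mixed. Of 16 neutrophil genes, 5 (31.2%) were above the limit on all 6 arrays, a share near the 36.5% of all named probe sets, and the granule genes Mpo and Ngp averaged 4.03 each. Clec4d, a pattern receptor of myeloid cells, and Retnlg, a resistin-like protein of neutrophils, averaged 8.46 and 7.79. Il1b, the inflammatory cytokine interleukin 1 beta, had 6.12, 8.86, 8.51, 6.55, 8.49 and 6.19 in mice 1 to 6, so that mice 2, 3 and 5 were highest. Of 14 dendritic cell genes 7 (50.0%) were above the limit on all 6 arrays; Bst2, which is also induced by interferon, averaged 10.46, Itgax, an integrin chain, 8.33, and Ccr7, the receptor that guides cells to lymph nodes, 7.60, while Flt3 was lowest at 3.74.

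Antigen presentation genes were bright, and the score of interferon-stimulated genes was highest in mice 2, 3 and 5. Of 13 MHC class I genes, 12 (92.3%) were above the olfactory receptor limit on all 6 arrays, against 36.5% of all named probe sets. In mouse 3, 8 were highest, against 12.2% of all named probe sets, and in mouse 6, 8 were lowest, against 19.2%. H2-K1 and H2-D1, the classical heavy chains, which near-identical family members may share probes with, averaged 11.49 and 9.92. Tap1, a transporter of peptides, had 7.46, 8.72, 8.95, 7.68, 8.92 and 7.32 in mice 1 to 6. In MHC class II, 6 of 8 were highest in mouse 3, against 12.2% of all named probe sets; H2-Eb1, H2-Aa and H2-Ab1 averaged 11.87, 10.84 and 10.82. Of 22 interferon-stimulated genes, 8 (36.4%) had an SD over 1, against 3.98% of all named probe sets, and 6 without mice 1 and 6, with scores of -0.40, 0.59, 0.67, -0.70, 0.50 and -0.67. Gbp2, a guanylate-binding protein induced by interferon gamma, had 6.56, 8.94, 9.38, 6.13, 9.29 and 6.25. Cxcl9, the chemokine that draws activated T cells, had 8.11, 10.60, 10.49, 9.02, 10.49 and 8.86. Both had mice 2, 3 and 5 above the others without overlap. Not all members of the list kept this order. Of the 22, 1 was highest in mouse 1, against 15.3% of all named probe sets, and 1 was lowest in mouse 2, against 18.2%. Mx1, an antiviral gene that common laboratory strains carry in a defective form, was at background at 3.88.

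Checkpoint ligands and receptors were both highest in mouse 3 for most genes. Cd274, which encodes the ligand PD-L1, had 7.96, 8.99, 9.80, 8.60, 9.55 and 8.05 in mice 1 to 6, and Pdcd1lg2, which encodes PD-L2, had 8.43, 9.43, 10.45, 8.22, 10.09 and 8.06. Pdcd1, the receptor PD-1 itself, had 6.41, 5.79, 6.98, 6.11, 7.16 and 5.84. All 3 genes were highest in mice 3 and 5. Cd47, the signal that restrains phagocytes, and Lgals9, a galectin, averaged 10.17 and 8.87, and Ctla4, Lag3, Tigit and Havcr2 averaged 4.85, 5.34, 5.61 and 4.25. Btla was lowest at 4.22. Of 19 measured genes, 12 (63.2%) were above the limit on all 6 arrays, against 36.5% of all named probe sets, and 11 were highest in mouse 3, against 12.2% of all named probe sets. Ccl8, Ccl6 and Cxcl16, the brightest probe sets among the chemokines, averaged 11.87, 11.19 and 10.97. Ccl3, which draws myeloid cells, ran from 5.95 in mouse 6 to 8.74 in mouse 2, and Il6 was at background with a mean of 3.21. Of 30 chemokine and cytokine genes, 12 were lowest in mouse 1, against 16.8% of all named probe sets, and 13 were highest in mouse 2, against 19.5%.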

How the data were processed

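The deposited values are log2 signals from 1 Clariom S array per mouse, made with RMA (background correction, quantile normalization and probe set summary) in oligo, per the submitters' processing notes. No versions are named; the sources used here give neither the genome build nor the set of arrays normalized together. Of 29129 rows, 6923 control rows were left out, and of the remaining 22206 probe sets 19572 had 1 gene symbol from the platform annotation, updated through gene identifiers, while 2634 are unnamed here. The quantile step removes a change shared by most genes, so levels are relative. The 6 placebo mice were grouped by their treatment label, and mouse numbers come from the titles.

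Means, SDs, list scores and principal components were computed with Python 3.11.15, numpy 2.4.6 and pandas 2.3.3, and cyclic loess with limma 3.58.1 in R 4.3.3. With 1 group and no contrast no groups were compared; Dixon's critical value was used to find mice that stand apart, and precision is limited by having 6 arrays. Background was the 95th percentile of 5222 negative-control rows on each array or, as a limit added after the data were seen, the 99th percentile of 1080 olfactory receptor probe sets. The probe set with the highest mean stood for a gene. Across 43 lists that share some genes, 619 of 693 genes were measured. The members and lists were chosen with earlier results of these data known, and the brown fat and mammary lists after their values were seen. Genes were named by rule: the 25 highest means, 25 highest SDs and 10 lowest SDs, the 6 largest loadings at each end of 2 components, and from each list up to 4 members with the highest mean, the one with the highest SD and the one with the lowest mean. The receptors that lenvatinib inhibits, Pdcd1 and Cd274 were added, not every gene the rule takes is printed, and 31 of 241 genes named, such as Fgb, Hpx, Hnf4a, Cidea and Nos2, fall outside it and were chosen after their values were seen. The scripts were tested on simulated data. Alternatives were other limits of background, filters, scaling, cyclic loess, and leaving out mice.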

Additional observations from a re-analysis of the deposited data

Results flagged for a closer look

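Among 43 list scores and 241 genes named above, 15 had 1 mouse whose gap to the nearest other mouse, as a share of the whole range, exceeded the 95% critical value of Dixon's test for 6 samples. Chance alone flags about 1 in 20 items that were chosen without their values; many of these genes were named for a high SD or after their values were seen, so that rate cannot be applied here. For lists, mouse 1 stood apart with scores of 0.67 for the respiratory chain, 0.73 for pericytes and vascular smooth muscle and 0.47 for Schwann cells. Mouse 3 stood apart with scores of 0.77 for macrophages and monocytes and 0.50 for MHC class II.

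For genes, mouse 1 stood apart with log2 signals of 11.36 for Ucp1, 10.35 for Ndufv1, 8.35 for Nsdhl, a sterol dehydrogenase, 6.77 for Elovl3, 5.92 for Mbp and 3.56 for Serpinc1, the last of these below background. Mouse 3 was apart in Fth1, which was highest there at 12.80, and in the mast cell tryptase Tpsb2, which was lowest there at 5.94, against 8.20 in the next mouse. Mouse 5 was lowest for Pf4 at 9.31, and mouse 6 was highest for Ngp at 5.13, a value below the background limit of its array.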

How the results depend on the processing

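No paired analysis was possible because only 1 arm is described and no groups are compared. The number of named probe sets above background on all 6 arrays, 2188, followed the limit: it was 426 with the 99th percentile of the negative controls, 13051 with their median, 3506 when the mean over mice had to pass, and 7152 with the olfactory receptor limit. It was 2210 to 2428 when each mouse was left out. The number with an SD over 1, 192, was 779 with no filter, 26 with a filter at the 99th percentile of the negative controls, 597 with one at the olfactory receptor limit, and 67 without mice 1, 4 and 6; it was 156 to 236 when each mouse was left out. The share of variance on the first principal component, 57.8%, was 43.2% with genes scaled to unit SD, 47.8% with no filter, 58.5% after cyclic loess, 63.4% without mice 1 and 6, and 56.7% to 69.0% when each mouse was left out. The 16 lists with a score range over 1 became 12 to 16 under every alternative run. Of the 25 most variable genes, 15 to 23 remained when 1 mouse was left out, and 12 without mice 1, 4 and 6. All 1687 recomputed mean levels of named genes stayed within 1 SD. Most of these left out 1 of the 6 mice, which cannot move a mean by 1 SD, so they do not test stability. Of the recomputed ranges of list scores, 373 stayed within the SD of the score and 39 did not: 19 when 1 mouse was left out, 5 without mice 1 and 6, 10 with members above the negative-control limit only, 4 with the median over members and 1 after cyclic loess. A score's range cannot change when the mouse left out is neither highest nor lowest, so the 373 include values that could not move.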
